A study of Homo sapiens with 58 samples.

Results

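Genes of 6 amino acid transporter families (SLC1, SLC3, SLC7, SLC36, SLC38 and SLC43) were followed across 5 lines of HaCaT keratinocytes. A gene was a member when its symbol was 1 of these family names, the letter A and a number, and when at least 1 probe set of the array (Affymetrix U133 Plus 2.0) was annotated to that gene alone. This gave 38 of the 19775 genes on the array, read by 91 probe sets. Where a gene had several probe sets, the brightest on average over the 58 arrays stood for it, and 14 members had a single probe set. HaCaT is a spontaneously immortalized line of human skin keratinocytes. HaCaT-HRAS carried forced expression of HRAS-VAL12D, an activated RAS, HaCaT-p65 of RELA/p65, a subunit of NF-kappa-B, and HaCaT-EGFR of wild-type EGFR, the receptor of epidermal growth factor (EGF). HaCaT-vector was the mock line, and HaCaT was used without introduced DNA. Whether each variant was 1 clone or a pool is not given in the sources used here.

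The 18 conditions were as follows. In serum there were 3 HaCaT-HRAS, 3 HaCaT-p65, 5 HaCaT-EGFR, 3 HaCaT-vector and 3 HaCaT arrays. After serum starvation for 12 h, ligand was added at 10 ng/ml: 7 HaCaT-EGFR and 4 HaCaT-vector arrays received EGF, 5 HaCaT-p65 and 3 HaCaT-vector arrays received TNF, and 7 HaCaT-EGFR, 3 HaCaT-p65 and 4 HaCaT-vector arrays received none. Starved and ligand arrays were taken at 4 h or 8 h, and both times were pooled within a condition. All serum-free HaCaT-vector arrays were of 4 h, while HaCaT-EGFR and HaCaT-p65 had both times. Inhibitors were on 8 arrays: gefitinib, which blocks EGFR, with EGF (2 arrays) and in serum (2 arrays) in HaCaT-EGFR, and LY294002, which blocks PI3K, or U1026, which the study used against MEK, with EGF on 1 array each of HaCaT-EGFR and HaCaT-vector. No HaCaT-HRAS or HaCaT array was starved.

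Amino acid transporters move amino acids across the plasma membrane and the lysosomal membrane. The SLC7 light chains such as LAT1 (SLC7A5), y+LAT1 (SLC7A7) and xCT (SLC7A11) reach the cell surface as heterodimers with a heavy chain of the SLC3 family, mostly 4F2hc (SLC3A2), and exchange one amino acid for another. The SLC38 carriers SNAT1 (SLC38A1) and SNAT2 (SLC38A2) bring in glutamine and other small neutral amino acids with sodium, which LAT1 can then exchange for leucine, a signal for the kinase mTORC1. Several of these genes are known targets of the transcription factor ATF4, which is translated when amino acids run short.

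Values are log2 expression as deposited, from which the authors had already subtracted the effect of processing date. Array medians over all probe sets ranged from 4.98 to 5.24. Differences are the first-named condition minus the second, with the standard error (SE) of limma, and each adjusted p comes from limma's moderated test, corrected for all 19775 genes by the Benjamini-Hochberg method and called under 0.05. The labels call arrays of a condition replicates without saying that they came from separate cultures, so the tests measure the spread between these arrays. The 6 dates did not hold all conditions: date 1 held serum arrays alone and met the other dates only through HaCaT-EGFR in serum, and starved HaCaT-p65 and HaCaT-vector shared no date. The introduced HRAS read 9.98 in HaCaT-HRAS and 7.57 in HaCaT-vector (log2 difference 2.41, SE 0.10). RELA differed by 0.27 and 0.40 on its 2 probe sets between HaCaT-p65 and HaCaT-vector, neither past the test. Of 9 EGFR probe sets, 2 were higher in HaCaT-EGFR than in HaCaT-vector, by 1.00 and 0.98, and the 7 others did not pass. Of 10 keratinocyte markers, the 6 with a probe set of their own had a mean of at least 8.51, while the 3 leukocyte markers averaged between 3.85 and 4.40. In HaCaT-HRAS against HaCaT-vector, 3 of the 6 keratinocyte markers were lower (KRT14, DSP and SFN), and 1 of 4 endothelium markers was higher (CDH5, by 4.29). LUM, 1 of 7 fibroblast markers, was higher in HaCaT-p65 by 5.37, and COL3A1 was higher in HaCaT-EGFR by 2.24. HaCaT-EGFR also had 1 of the 6 keratinocyte markers lower than HaCaT-vector in serum. The part of these shifts in the results below was not tested. In bulk RNA, fewer cells that express a gene and less RNA per cell cannot be told apart.

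Of the 38 transporter genes, 27 had a mean log2 value of at least 5 over the 58 arrays, and 11 lay under it, where a probe set may read little but background. SLC38A4 and SLC7A9 are among the 11. The range over all arrays was above 2 for 8 members and below 1 for 11. Over the 20 comparisons of 2 conditions, 19 members passed the test at least once, in 53 calls. The heat map of differences shows that most of these calls fell between lines grown in serum, and that few fell in the ligand and inhibitor comparisons.

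**Figure D1:**
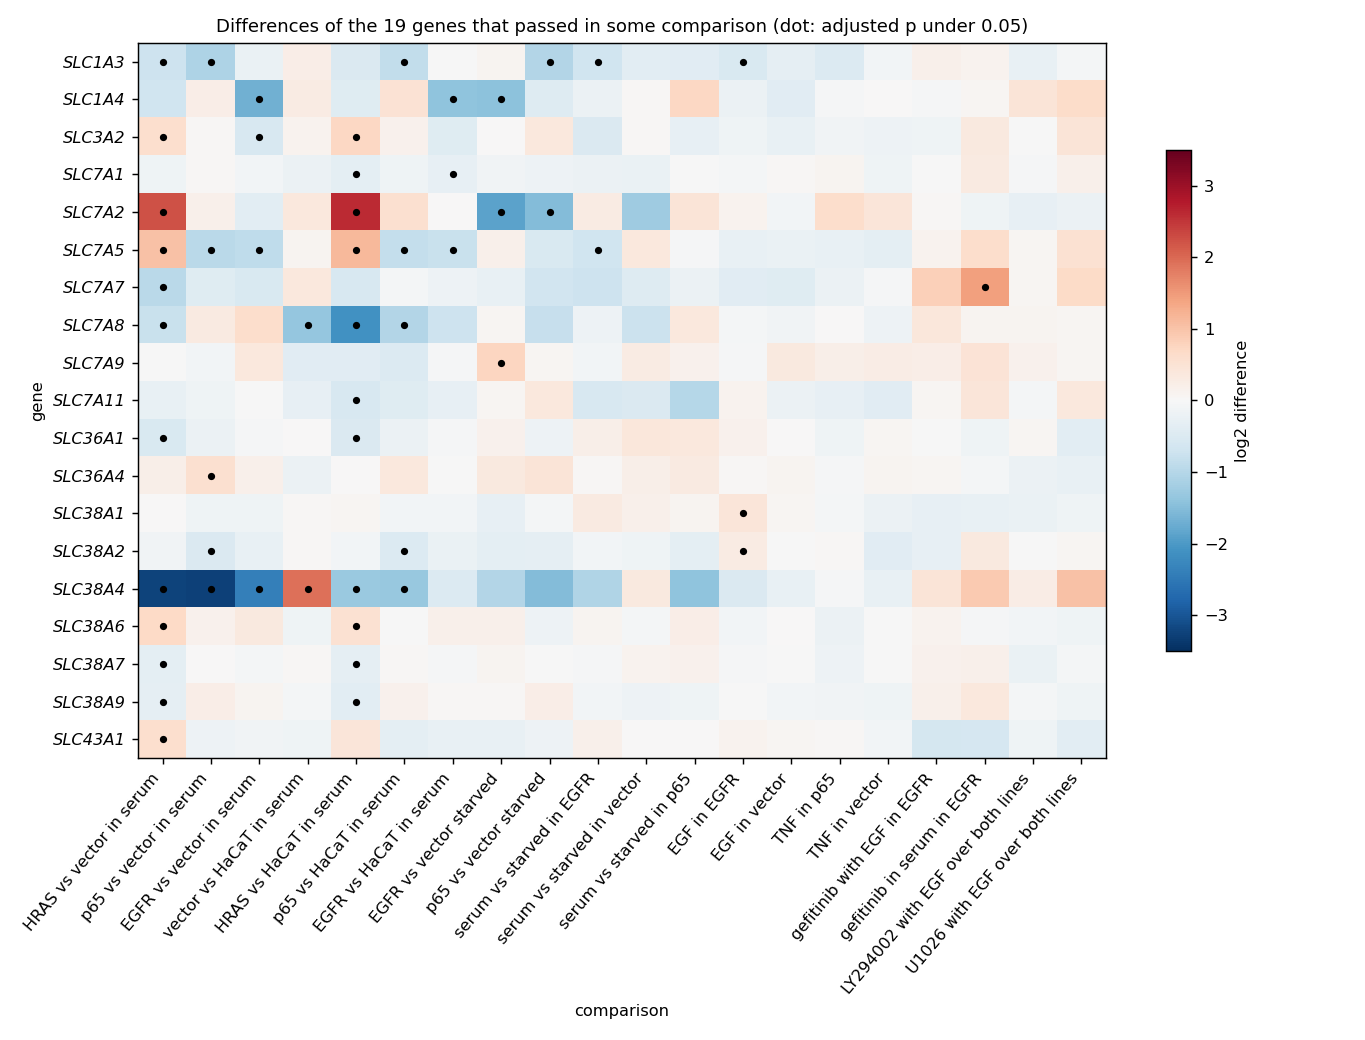
Log2 differences (colour) of the 19 transporter genes that passed the test in at least 1 of 20 comparisons, genes down the page and comparisons across, each the first-named condition minus the second, with a dot where limma's adjusted p was under 0.05. SLC38A4 in the line comparisons (as low as -3.26) and SLC7A2 in HaCaT-HRAS (2.60 over HaCaT) carry the strongest colours.

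The LAT1 pair moved in opposite directions in HaCaT-HRAS and HaCaT-EGFR. SLC7A5, the light chain of LAT1 that carries leucine and other large neutral amino acids, read 13.32, 12.76 and 12.60 in HaCaT-HRAS, against 12.32, 11.58 and 11.71 in HaCaT-vector. It was 1.02 higher in HaCaT-HRAS (SE 0.18, limma adjusted p = 2.33e-05), and the 3 HaCaT-HRAS arrays lay above all 55 others of the series, whose highest was 12.32. SLC3A2, its heavy chain, read 9.44, 8.95 and 8.95 in HaCaT-HRAS, against 8.76, 8.36 and 8.42 in HaCaT-vector. SLC3A2 was 0.60 higher (SE 0.15, adjusted p = 0.00224), and again the HaCaT-HRAS arrays stood above all others, whose highest was 8.90. Without HaCaT-HRAS array 1 the difference of SLC3A2 was 0.43 and just missed the threshold (adjusted p = 0.0505). HaCaT-vector array 1, which has the same replicate number and is the highest of its line, stayed in that fit. In HaCaT-EGFR, SLC7A5 read 11.29, 10.98, 10.68, 10.95 and 11.01, all below the HaCaT-vector arrays. The fall was 0.89 (log2 difference -0.89, SE 0.18, adjusted p = 0.000533). SLC3A2 read between 7.84 and 8.11 in the 5 HaCaT-EGFR arrays and fell by 0.55 (SE 0.15, adjusted p = 0.0106), a call lost without HaCaT-vector array 1 or HaCaT-EGFR array 3 (up to adjusted p = 0.134). In HaCaT-p65 the pair parted. SLC7A5 read 11.30, 10.86 and 10.60 there and fell by 0.95 (SE 0.18, adjusted p = 0.000233), without overlap with HaCaT-vector. SLC3A2 read 8.64, 8.40 and 8.61 in HaCaT-p65, a difference of 0.03 (95% interval -0.26 to 0.33). These 3 comparisons share the HaCaT-vector arrays. Each gene has a single probe set here, and pseudogenes close to SLC7A5 may share its signal.

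**Figure D2:**
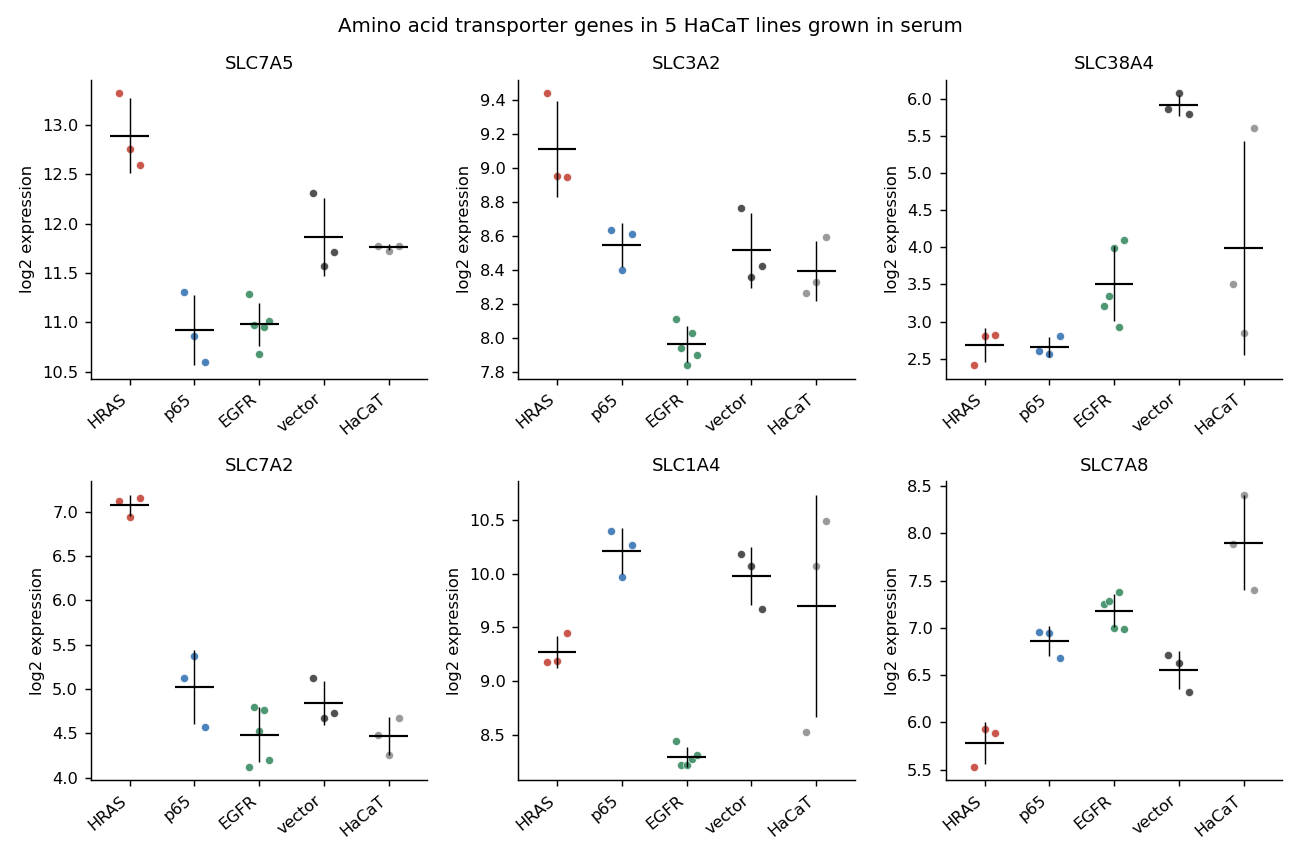
Log2 expression (vertical axis) of 6 transporter genes in HaCaT-HRAS, HaCaT-p65, HaCaT-EGFR, HaCaT-vector and HaCaT grown in serum, 1 point for each array, with the mean (horizontal line) and SD (vertical line). SLC7A5 lies between 12.60 and 13.32 in HaCaT-HRAS and at most 11.30 in HaCaT-p65 and HaCaT-EGFR, while SLC38A4 lies between 5.81 and 6.08 in HaCaT-vector and below that elsewhere.

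The promoters of both genes are shown because the pair moved together in 2 lines. Promoter windows from RefSeq were at hand for 29 of the 38 members, and the stretch of 250 bases before to 50 bases after the first listed start was searched on both strands for 3 short motifs. TGATGNAA, the C/EBP-ATF response element bound by ATF4, was in 3.67% of 27305 such windows and in 4 of the 29 members. The E-box CACGTG was in 7.43% of all windows and in 5 members, and the AP-1 site TGANTCA in 7.76% and in 4 members. In the stretches below, from 250 bases before to 20 bases after the start, capitals mark matches to these motifs. The SLC7A5 promoter (GRCh38.p14, chr16:87869488-87869757, minus strand) holds an E-box, and that of SLC3A2 (chr11:62881449-62881718, plus strand, 1 of 3 listed starts) holds an AP-1 site. SLC3A2 also has the C/EBP-ATF element on the opposite strand from base 38 after the start, beyond the stretch shown. A match is a string of letters and says nothing of what binds there.
SLC7A5: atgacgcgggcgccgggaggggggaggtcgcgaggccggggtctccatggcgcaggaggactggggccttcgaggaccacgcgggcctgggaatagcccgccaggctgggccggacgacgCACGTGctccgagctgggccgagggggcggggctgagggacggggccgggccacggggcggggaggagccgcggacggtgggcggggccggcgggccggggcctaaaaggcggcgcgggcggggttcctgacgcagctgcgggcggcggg
SLC3A2: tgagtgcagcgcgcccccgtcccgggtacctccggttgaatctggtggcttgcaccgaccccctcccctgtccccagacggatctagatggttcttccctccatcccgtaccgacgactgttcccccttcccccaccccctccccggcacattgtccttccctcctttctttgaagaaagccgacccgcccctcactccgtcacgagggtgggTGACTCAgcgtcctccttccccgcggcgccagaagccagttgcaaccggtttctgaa

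HaCaT-HRAS differed from HaCaT-vector in 12 of the 38 members, 5 higher and 7 lower, where 18.2% of all genes passed. The median difference of the 38 was -0.16, against -0.04 over all genes. By class, the 8 light chains had 1 higher and 2 lower, the 10 sodium-coupled neutral carriers 1 higher and 3 lower, the 5 anionic carriers 1 lower, the 5 cationic carriers 1 higher, the 2 heavy chains 1 higher, the 2 proton-coupled carriers 1 lower and the 3 SLC43 genes 1 higher. The neutral exchangers SLC1A4 and SLC1A5 did not pass.

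SLC38A4 and SLC7A2 had the widest gaps. SLC38A4, which encodes the liver-type neutral carrier SNAT4, read 2.41, 2.81 and 2.82 in HaCaT-HRAS, against 5.86, 6.08 and 5.81 in HaCaT-vector. It was lower by 3.24 (log2 difference -3.24, SE 0.40, adjusted p = 2.95e-08). It was also low in HaCaT-p65, at 2.60, 2.56 and 2.81 (-3.26, SE 0.40, adjusted p = 1.26e-07). HaCaT-EGFR read 3.21, 3.34, 3.99, 2.93 and 4.10 (-2.40, SE 0.40, adjusted p = 3.30e-05). None of these 3 lines overlapped the HaCaT-vector arrays that they share. All of their arrays lie under 5, where a reading may be background, so the size of these differences is uncertain and may be understated. The HaCaT-vector arrays stood above HaCaT too, where SLC38A4 read 3.51, 2.85 and 5.61: HaCaT-vector was higher by 1.93 (SE 0.40, adjusted p = 0.00226), a call lost without HaCaT array 2 (1.35, adjusted p = 0.0608). The second SLC38A4 probe set had a mean of 3.39 and differed by -0.57 in HaCaT-HRAS, -0.47 in HaCaT-p65 and -0.55 in HaCaT-EGFR.

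SLC7A2, a carrier of the cationic amino acids arginine and lysine, read 7.12, 6.94 and 7.15 in HaCaT-HRAS, against 5.12, 4.67 and 4.73 in HaCaT-vector. It was 2.23 higher in HaCaT-HRAS (SE 0.30, adjusted p = 2.34e-07), with no overlap. The other 2 SLC7A2 probe sets, with means of 4.92 and 4.12, differed by -0.15 and 0.27 in the same comparison, so the rise rests on 1 of 3 probe sets. SLC7A2 was also higher against HaCaT, whose arrays read 4.48, 4.25 and 4.68 (2.60, SE 0.30, adjusted p = 8.89e-09).

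SLC1A1, the glutamate and aspartate carrier EAAC1, showed how far the choice of probe set mattered. Its chosen probe set differed by -0.20 between HaCaT-HRAS and HaCaT-vector (adjusted p = 0.580). Its other probe set has the lower mean over the series (3.86) and read 6.62, 7.27 and 6.96 in HaCaT-HRAS, against 3.17, 3.29 and 3.25 in HaCaT-vector. That is a difference of 3.71 (SE 0.18, limma adjusted p = 2.19e-19 over all probe sets). The 3 HaCaT-HRAS arrays lay above all 55 others, which reached 5.13. Starved HaCaT-EGFR read 3.47, 3.33, 3.12, 3.17, 3.37, 3.14 and 3.60, against 5.13, 4.80, 4.58 and 4.39 in starved HaCaT-vector. Between the starved lines HaCaT-EGFR was lower than HaCaT-vector by 1.41 (log2 difference -1.41, adjusted p = 1.10e-05). HaCaT-vector with EGF (4.71, 4.47, 4.82 and 5.12) or TNF (4.85, 4.70 and 4.82) lay within the range of starved HaCaT-vector, and these serum-free arrays came next after HaCaT-HRAS. The second probe set was singled out after its values were seen, and it is not counted among the 12 calls.

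**Figure D3:**
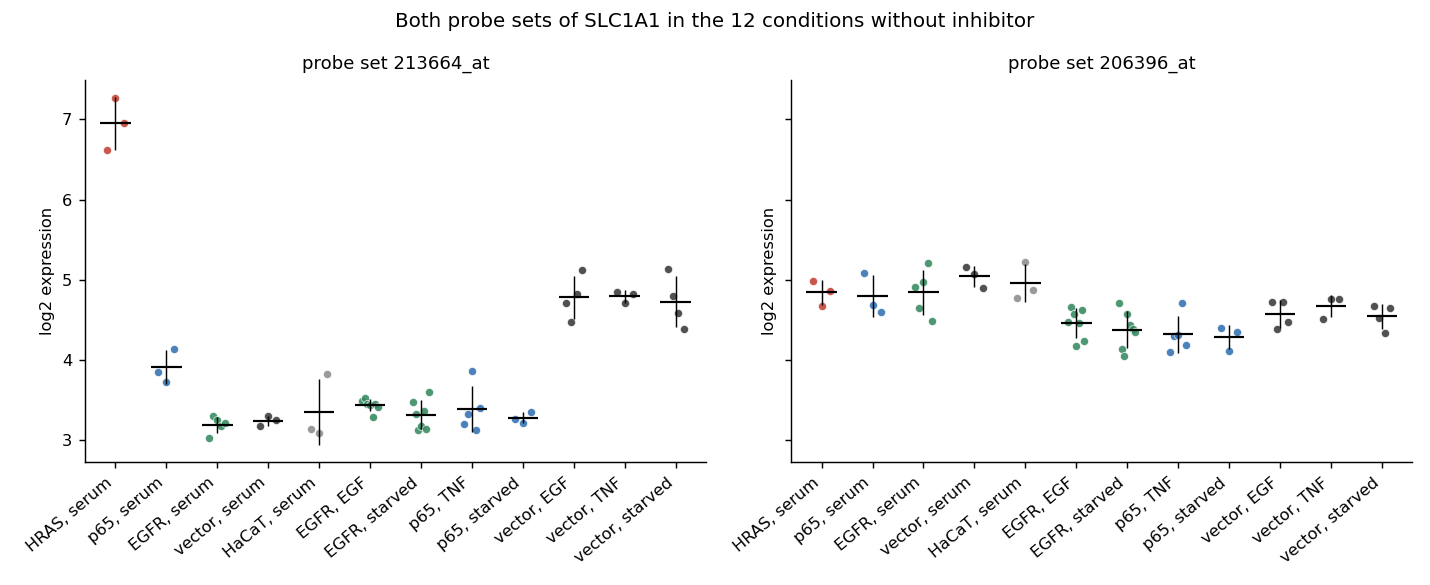
Log2 expression (vertical axis) on both probe sets of SLC1A1 in the 12 conditions without inhibitor, 1 point for each array, with the mean (horizontal line) and SD (vertical line). On the probe set with the lower mean (left) the HaCaT-HRAS arrays lie between 6.62 and 7.27 and all others at or below 5.13, while on the chosen probe set (right) they lie among the other conditions.

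The remaining calls in HaCaT-HRAS against HaCaT-vector were smaller. SLC38A6, an orphan member of the glutamine carriers, rose by 0.71 (SE 0.14, adjusted p = 9.95e-05) and SLC43A1, the leucine facilitator LAT3, by 0.58 (SE 0.19, adjusted p = 0.0232). Both had their 3 HaCaT-HRAS arrays above all others, by narrow gaps. The lowest HaCaT-HRAS array of SLC38A6 read 8.4725, against 8.4694 in the highest other array. For SLC43A1 these were 5.74 and 5.68. The share of all genes whose HaCaT-HRAS arrays stand apart from all others was not counted. The light chains SLC7A7, which carries cationic amino acids out of the cell, and SLC7A8 (LAT2) fell by 0.95 (SE 0.32, adjusted p = 0.0317) and 0.77 (SE 0.26, adjusted p = 0.0289). SLC1A3, the glutamate carrier EAAT1, read 8.75, 8.70 and 8.76 in HaCaT-HRAS, against 9.37, 9.69 and 9.29 in HaCaT-vector (-0.71, SE 0.19, adjusted p = 0.00579). The lysosomal carriers SLC36A1 (PAT1), SLC38A7 and SLC38A9, the arginine sensor of mTORC1, fell by 0.52, 0.35 and 0.31. Leaving out 1 array lost several of these calls. The call of SLC7A7 was lost without HaCaT-vector array 1 or HaCaT-HRAS array 2 or 3 (up to adjusted p = 0.226), and that of SLC7A8 without HaCaT-vector array 1 or 2 or HaCaT-HRAS array 1 (up to 0.140). The call of SLC43A1 was lost without HaCaT-HRAS array 1 or 2 or HaCaT-vector array 2 or 3 (up to 0.119), and that of SLC38A9 without HaCaT-vector array 1 or 3 or HaCaT-HRAS array 2 (up to 0.115). SLC1A3 narrowly missed the threshold without HaCaT-vector array 2 (0.0547) and SLC38A7 without HaCaT-HRAS array 3 (0.0526).

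In HaCaT-p65 against HaCaT-vector 5 members passed, 1 higher and 4 lower, where 7.18% of all genes did. The median over the members was -0.06 and over all genes -0.00. Beside SLC38A4 and SLC7A5, SLC1A3 fell: it read 8.20, 8.49 and 8.44 in HaCaT-p65, below all HaCaT-vector arrays (-1.07, SE 0.19, adjusted p = 0.000119). SLC38A2, the glutamine carrier SNAT2, read 11.54, 11.38 and 11.39 in HaCaT-p65, against 11.92, 12.04 and 11.87 in HaCaT-vector (-0.50, SE 0.12, adjusted p = 0.00264). SLC36A4, a carrier of proline and tryptophan, rose by 0.56 (SE 0.13, adjusted p = 0.00362), a call lost without HaCaT-vector array 3 (0.43, adjusted p = 0.0647).

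In HaCaT-EGFR against HaCaT-vector in serum 4 members passed, all lower, where 7.87% of all genes passed. The medians were -0.05 over the members and -0.00 over all genes. Beside SLC38A4, SLC7A5 and SLC3A2, the fourth was SLC1A4. SLC1A4, which exchanges serine, alanine and cysteine, read 8.44, 8.22, 8.23, 8.28 and 8.31 in HaCaT-EGFR, against 10.18, 10.07 and 9.67 in HaCaT-vector. It fell by 1.68 (log2 difference -1.68, SE 0.28, adjusted p = 4.79e-05), and no array left out removed the call. The 2 other SLC1A4 probe sets with a mean above 8 differed by -1.62 and -1.77, the first of a type that can also read related transcripts. HaCaT-HRAS lay between, at 9.18, 9.19 and 9.44 (-0.70 against HaCaT-vector, adjusted p = 0.0857), and HaCaT-p65 did not pass, at 10.39, 9.97 and 10.27. On the 2 other probe sets above 8, HaCaT-HRAS read 8.60 to 9.10 and 8.20 to 8.61. HaCaT-vector read 9.43 to 9.68 and 9.14 to 9.41 on them. These 2 lines did not overlap on the probe sets above 8, but did on the dimmer ones.

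HaCaT without introduced DNA gave a second reference, with a wider spread between its 3 arrays: SLC1A4 read 8.53, 10.07 and 10.49 there. HaCaT-HRAS differed from HaCaT in 11 members (4 higher, 7 lower, background 17.7%), HaCaT-p65 in 5 (0 higher, 5 lower, 5.94%), HaCaT-EGFR in 3 (0 higher, 3 lower, 3.88%) and HaCaT-vector in 2 (1 higher, 1 lower, 2.87%). These comparisons share the HaCaT arrays. Of the 6 keratinocyte markers, 5 were lower than in HaCaT in HaCaT-HRAS (median -1.04), 1 in HaCaT-p65, 2 in HaCaT-EGFR and 0 in HaCaT-vector, and their part in these results was not tested. With only the compared lines in the fit, 3 members passed in HaCaT-HRAS (SLC7A2, SLC7A5 and SLC7A8) and 0 in the other 3 lines, so all calls of HaCaT-p65, HaCaT-EGFR and HaCaT-vector against HaCaT rest on the spread shared over all arrays. SLC7A5 passed against HaCaT in 3 lines: 1.13 in HaCaT-HRAS (SE 0.18), -0.84 in HaCaT-p65 (SE 0.18) and -0.78 in HaCaT-EGFR (SE 0.18). HaCaT itself read 11.78, 11.73 and 11.78 for SLC7A5, and HaCaT-vector differed from it by 0.11 (95% interval -0.25 to 0.47). The call in HaCaT-EGFR was lost without HaCaT-EGFR array 3 (adjusted p = 0.0843).

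SLC7A8, the light chain LAT2, was lower than in HaCaT in 3 lines. It read 5.53, 5.93 and 5.89 in HaCaT-HRAS and 7.89, 8.41 and 7.40 in HaCaT (-2.11, SE 0.26, adjusted p = 2.44e-08). HaCaT-vector read 6.71, 6.63 and 6.32 (-1.34, SE 0.26, adjusted p = 0.000855), and HaCaT-p65 6.95, 6.95 and 6.68 (-1.04, SE 0.26, adjusted p = 0.00742), the last lost without HaCaT array 2 (adjusted p = 0.0792). HaCaT-HRAS had the lowest SLC7A8 of the series, below the other 55 arrays, whose lowest was 5.995. SLC1A4 fell by 1.40 in HaCaT-EGFR against HaCaT (log2 difference -1.40, SE 0.28, adjusted p = 0.0014). SLC38A4 fell by 1.31 in HaCaT-HRAS and 1.33 in HaCaT-p65 against HaCaT, but without HaCaT array 3 these were -0.50 and -0.52 and no longer passed (adjusted p = 0.389 and 0.456). These calls were also lost without HaCaT-HRAS array 1 and without any 1 of the HaCaT-p65 arrays. The other members below HaCaT included SLC7A1, the cationic carrier CAT1, in HaCaT-HRAS (-0.34) and in HaCaT-EGFR (-0.29), and SLC7A11, the cystine carrier xCT, in HaCaT-HRAS (-0.55). The SLC7A1 call in HaCaT-EGFR was lost without HaCaT-EGFR array 1, 2 or 3 or HaCaT array 2 or 3 (up to adjusted p = 0.147), and the SLC7A11 call without HaCaT array 1 or 3 or HaCaT-HRAS array 2 or 3 (up to 0.209). SLC3A2 and SLC38A6 were higher in HaCaT-HRAS than in HaCaT by 0.72 and 0.55, and SLC36A1, SLC38A9 and SLC38A7 were lower by 0.51, 0.38 and 0.31. The calls of SLC38A6 (without HaCaT-HRAS array 1 or HaCaT array 3), SLC36A1 (HaCaT array 1) and SLC38A7 (HaCaT array 1 or HaCaT-HRAS array 3) were lost, with adjusted p up to 0.0584, 0.0552 and 0.105. In HaCaT-p65, SLC1A3 and SLC38A2 lay below HaCaT by 0.85 and 0.47, calls lost without HaCaT array 1 for SLC1A3 (adjusted p = 0.0714) and HaCaT array 2 or 3 for SLC38A2 (up to 0.0995).

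After serum starvation, HaCaT-EGFR differed from HaCaT-vector in 3 members (1 higher, 2 lower, background 7.89%) and HaCaT-p65 in 2 (0 higher, 2 lower, 5.3%), both against the same HaCaT-vector arrays. Those were all of 4 h, while HaCaT-EGFR and HaCaT-p65 also had 8 h arrays. SLC7A2 read 3.80 to 4.84 in the 7 starved HaCaT-EGFR arrays (median 4.19) and 4.35, 4.93 and 4.43 in HaCaT-p65, against 5.97, 6.00, 6.33 and 6.04 in HaCaT-vector. Both lines lay below it without overlap, with log2 differences of -1.88 in HaCaT-EGFR (SE 0.35, adjusted p = 0.000176) and -1.51 in HaCaT-p65 (SE 0.42, adjusted p = 0.0224). Its other 2 probe sets did not follow: they differed by 0.12 and 0.19 in HaCaT-EGFR, and by 0.22 and 0.78 in HaCaT-p65, none past the test. The last of these read 4.75, 4.82 and 4.60 in HaCaT-p65, against 4.06, 3.86, 3.97 and 3.91 in HaCaT-vector, the opposite way to the chosen probe set and without overlap.

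SLC1A4 stayed low in starved HaCaT-EGFR, at 8.03 to 9.00 (median 8.40), against 10.01, 9.88, 9.94 and 9.90 in HaCaT-vector (-1.43, SE 0.33, adjusted p = 0.00246). SLC7A9, a light chain for cystine and cationic amino acids in kidney and gut, read 4.46 to 5.13 in HaCaT-EGFR (median 4.72), against 4.04, 3.87, 4.25 and 3.83 in HaCaT-vector (0.76, SE 0.18, adjusted p = 0.00388). Its mean over the series was 4.49, at a level where a probe set may read little but background. SLC1A3 read 8.91, 8.53 and 8.88 in starved HaCaT-p65, against 9.69, 9.81, 9.86 and 9.88 in HaCaT-vector (-1.04, SE 0.27, adjusted p = 0.0134). HaCaT-vector array 4 is the only starved array of that line on date 6, the single date it shares with starved HaCaT-EGFR. Without it, SLC1A4 and SLC7A9 in HaCaT-EGFR lost their calls (adjusted p = 0.140 and 0.638, with SLC7A9 at 0.47), while SLC7A2 in HaCaT-EGFR passed whichever array was left out (at most 0.0366). In HaCaT-p65 the call of SLC7A2 was lost without that array or HaCaT-p65 array 1 or 3 (up to 0.226), and that of SLC1A3 without it or HaCaT-p65 array 2 (up to 0.332). Within date 6, SLC1A4 differed by -1.46, SLC7A2 by -1.75 and SLC7A9 by 0.90 (3 HaCaT-EGFR arrays against 1 of HaCaT-vector). SLC7A5, lower in HaCaT-EGFR in serum, differed by 0.18 after starvation (95% interval -0.24 to 0.59); the change of this difference with medium was not tested.

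Serum against starvation was compared in 3 lines. In HaCaT-EGFR 2 members passed, both lower in serum, where 3.25% of all genes passed. SLC7A5 read 10.68 to 11.29 in the 5 serum arrays and 11.34 to 11.92 in the 7 starved arrays (median 11.69), without overlap (-0.69, SE 0.19, adjusted p = 0.0299). SLC1A3 read 9.02 to 9.37 in serum and 9.66 to 10.06 when starved (median 9.98), also without overlap (-0.69, SE 0.20, adjusted p = 0.0490). Within date 6, which holds both media, the differences were -0.67 for each. SLC3A2 (-0.52, adjusted p = 0.0516) and SLC7A11 (-0.56, adjusted p = 0.0760) missed the threshold. The SLC7A5 call was lost without serum array 4 or 5 or starved array 5 or 7 (up to adjusted p = 0.395). That of SLC1A3 was lost without serum array 1, 3, 4 or 5 or starved array 1, 2, 3, 6 or 7 (up to 0.255). In HaCaT-vector and HaCaT-p65 no member passed (background 0.976% and 0.703%), with 3 members each at an unadjusted p under 0.05. There SLC7A11 read 9.04, 8.29 and 8.25 in serum HaCaT-p65, against 9.66, 9.52 and 9.40 in starved HaCaT-p65 (-0.995, adjusted p = 0.0897), and SLC7A2 differed by -1.24 in HaCaT-vector (adjusted p = 0.287). In these 2 lines no date holds both media.

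EGF moved 3 members in HaCaT-EGFR, 2 higher and 1 lower, where 8.8% of all genes passed. The median over the 38 was 0.05, against -0.01 over all genes. SLC38A1, the glutamine carrier SNAT1, read 11.40 to 11.69 in the 7 EGF arrays (median 11.62), against 10.90 to 11.31 in the 7 starved arrays (median 11.26). It rose by 0.43 (SE 0.08, adjusted p = 0.000582), and the arrays did not overlap. SLC38A2 read 11.90 to 12.30 with EGF (median 12.06) and 11.65 to 11.84 starved (median 11.79), again without overlap, and rose by 0.30 (SE 0.08, adjusted p = 0.00869). SLC1A3 fell: it read 9.03 to 9.75 with EGF (median 9.36), against 9.66 to 10.06 starved (median 9.98), a difference of -0.53 (SE 0.13, adjusted p = 0.00480) with a small overlap. No single array left out removed any of the 3 calls. The direction was the same on each of the 3 dates: SLC38A1 differed by 0.54, 0.29 and 0.45 on dates 2, 3 and 6, SLC38A2 by 0.21, 0.38 and 0.30, and SLC1A3 by -0.74, -0.38 and -0.49.

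By time on date 6, SLC38A2 differed by 0.40 at 4 h (2 arrays against 2) and 0.08 at 8 h (1 against 1), and on date 2 by 0.32 and 0.11 (1 against 1 each). SLC1A3 differed by -0.36 at 4 h and -0.75 at 8 h on date 6, and by -0.48 and -1.01 on date 2. The change of the EGF difference with time was not tested. Without the 8 h arrays SLC1A3 differed by -0.39 and no longer passed (adjusted p = 0.124), while SLC38A1 and SLC38A2 still did. All 3 SLC38A2 probe sets rose, by 0.30 to 0.38, though the chosen one and the next brightest are of a type that can also read related transcripts. The second SLC38A1 probe set, with a mean of 10.81, differed by 0.09, and that of SLC1A3, with a mean of 3.74, by -0.11.

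In HaCaT-vector EGF moved no member past the test (background 1.01%), with 2 at an unadjusted p under 0.05. There SLC38A1 read 11.33, 11.51, 11.57 and 11.51 with EGF and 11.43, 11.46, 11.41 and 11.39 starved. SLC38A2 read 12.03, 12.09, 12.12 and 12.14 with EGF and 12.10, 12.12, 12.12 and 12.06 starved, a level that starved HaCaT-EGFR did not reach. The difference between the EGF effects of the 2 lines was 0.37 for SLC38A1 (95% interval 0.09 to 0.66) and 0.30 for SLC38A2 (0.04 to 0.56). HaCaT-vector had no 8 h array, so line and time are partly mixed in that difference. No member, and 0 of all 19775 genes, passed limma's adjusted test of that difference, and 3 members had an unadjusted p under 0.05. The choice of probe set mattered for the light chain SLC7A6. On its probe set with a mean of 7.38, HaCaT-vector read 7.44, 7.38, 7.35 and 7.38 with EGF, against 7.09, 7.08, 7.13 and 7.11 starved. HaCaT-EGFR read 7.405 to 7.64 with EGF and 7.17 to 7.35 starved. The chosen SLC7A6 probe set overlapped in both lines. The dimmer one was picked after its values were seen.

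**Figure D4:**
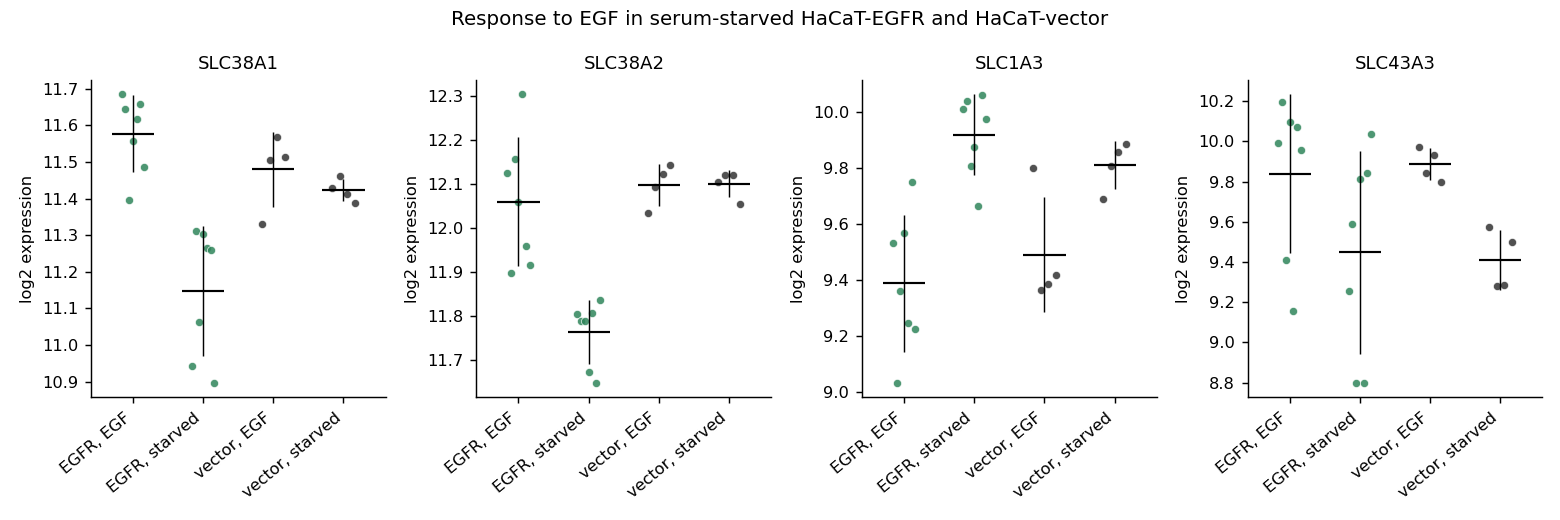
Log2 expression (vertical axis) of SLC38A1, SLC38A2, SLC1A3 and SLC43A3 in HaCaT-EGFR with EGF and starved and in HaCaT-vector with EGF and starved, 1 point for each array, with the mean (horizontal line) and SD (vertical line). In HaCaT-EGFR the EGF arrays of SLC38A1 (11.40 to 11.69) lie above all starved arrays (10.90 to 11.31), while in HaCaT-vector the 2 conditions overlap.

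The promoters of SLC38A1 and SLC1A3, which moved in opposite directions with EGF, both hold the C/EBP-ATF element. In SLC38A1 (GRCh38.p14, chr12:46266497-46266766, minus strand, 1 of 2 listed starts) it begins 4 bases before the start, and an AP-1 site lies 57 bases before it. In SLC1A3 (chr5:36596338-36596607, plus strand, 1 of 3 listed starts) the element begins 220 bases before the start. The SLC38A2 window held none of the 3 motifs. Capitals mark the matches.
SLC38A1: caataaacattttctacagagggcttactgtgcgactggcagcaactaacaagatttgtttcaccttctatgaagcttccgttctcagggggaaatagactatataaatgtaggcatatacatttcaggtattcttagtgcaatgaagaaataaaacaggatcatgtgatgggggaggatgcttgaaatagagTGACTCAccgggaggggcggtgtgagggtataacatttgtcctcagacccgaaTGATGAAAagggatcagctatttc
SLC1A3: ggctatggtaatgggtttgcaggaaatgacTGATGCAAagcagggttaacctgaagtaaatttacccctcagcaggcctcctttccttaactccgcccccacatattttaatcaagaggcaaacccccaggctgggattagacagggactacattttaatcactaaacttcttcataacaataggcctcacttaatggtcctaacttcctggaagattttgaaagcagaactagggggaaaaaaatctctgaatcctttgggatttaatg

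TNF moved no member past the test in either line. The background was 2.03% in HaCaT-p65 and 0.905% in HaCaT-vector, and 4 and 2 members had an unadjusted p under 0.05. In HaCaT-p65, SLC38A12 differed by -0.56 (adjusted p = 0.101) and SLC1A3 by -0.49 (adjusted p = 0.127). SLC38A2 read 11.76, 11.70 and 11.64 in HaCaT-vector with TNF, against 12.10, 12.12, 12.12 and 12.06 without (-0.40, SE 0.12, adjusted p = 0.107). The groups did not overlap there. In HaCaT-p65 SLC38A2 differed by 0.04 (95% interval -0.17 to 0.25). The difference between the lines was 0.44 (0.12 to 0.75, adjusted p = 0.540), and no member passed that test, where 0.0101% of all genes did. Line and time are partly mixed here too, since HaCaT-vector had 4 h arrays alone. HaCaT-p65 TNF arrays 3 and 4 carry the same replicate number, time and date in the labels. Their log2 difference had an SD of 0.393 over all genes, against 0.310 to 0.491 in the 9 other pairs of that condition, and both were kept. Without array 3 the count was 0 and without array 4 it was 1. HaCaT-p65 TNF array 5 is described once as a control in the study's sample sheet. Without it the count was also 0.

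Inhibitors were on few arrays, all of date 6. Each gefitinib condition had 1 array at 4 h and 1 at 8 h, given in that order, so they differ in time. Of the 5 HaCaT-EGFR serum arrays, the first 3 are of date 1, and arrays 4 and 5 are of 4 h and 8 h on date 6. Gefitinib with EGF moved no member past the test (background 1.81%), with 6 at an unadjusted p under 0.05. SLC38A1 read 11.37 and 11.22 and SLC38A2 11.88 and 11.66 with gefitinib, differences of -0.28 and -0.29 from EGF alone, both with an adjusted p above the threshold (0.379 and 0.286). SLC7A7 read 6.29 at 4 h and 7.12 at 8 h there, against 5.59 to 6.09 with EGF alone. The change of the gefitinib difference with time was not tested. In serum, gefitinib raised 1 member of HaCaT-EGFR, where 1.79% of all genes passed, and 12 members had an unadjusted p under 0.05. SLC7A7 read 6.36 and 7.56 with gefitinib, against 6.16, 5.06, 5.37, 5.53 and 5.54 in serum alone (1.43, SE 0.39, adjusted p = 0.0455). The groups did not overlap, but the call was lost without serum array 3, 4 or 5 or gefitinib array 2, and leaving out 1 array brought the difference between 0.83 (adjusted p = 0.753) and 2.03. SLC7A5 read 11.45 and 11.74 with gefitinib in serum, above the 10.68 to 11.29 of serum alone (0.62, SE 0.22, adjusted p = 0.162).

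LY294002 and U1026, each over both lines, moved no member past the test (background 0.693% and 3.02%), with 3 and 8 members at an unadjusted p under 0.05. Both conditions had 1 array per line, so their spread was taken from the other conditions. SLC43A3, which carries purine bases, read 8.70 in HaCaT-EGFR and 9.26 in HaCaT-vector with LY294002, and 8.76 and 9.25 with U1026. At 4 h on the same date it read 9.61 in HaCaT-EGFR (mean of 2 arrays) and 9.80 in HaCaT-vector (1 array) with EGF alone. The differences over both lines were -0.88 (SE 0.26, adjusted p = 0.108) for LY294002 and -0.86 (SE 0.26, adjusted p = 0.0600) for U1026. With gefitinib SLC43A3 differed by -0.63 beside EGF and -0.76 in serum, and EGF itself by 0.39 in HaCaT-EGFR and 0.48 in HaCaT-vector, none past the test. These values share the EGF and serum arrays. U1026 also had SLC7A5 at 11.96 in HaCaT-EGFR and 11.78 in HaCaT-vector, above every EGF array of its own line (0.54, SE 0.18, adjusted p = 0.115), and SLC3A2 at 8.89 and 8.54 (0.45, adjusted p = 0.106).

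**Figure D5:**
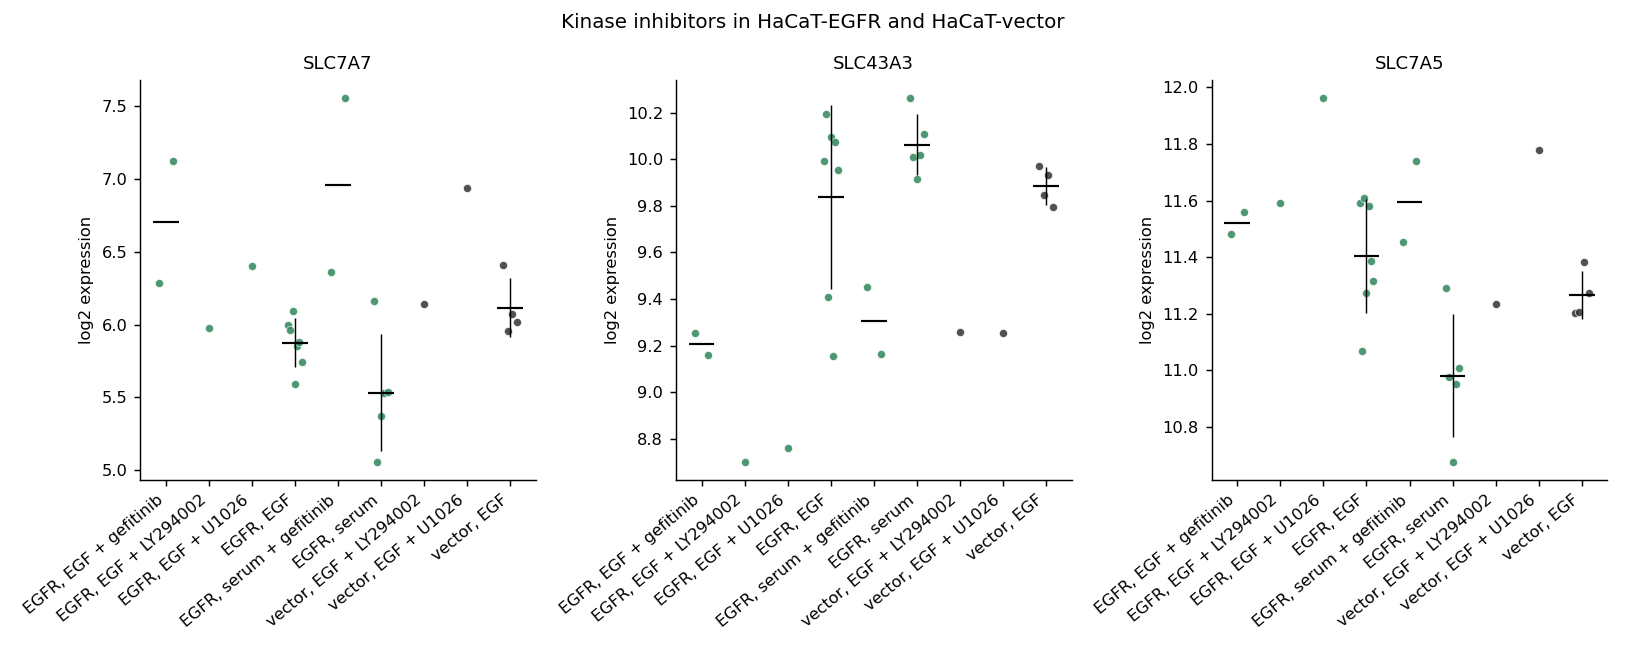
Log2 expression (vertical axis) of SLC7A7, SLC43A3 and SLC7A5 in HaCaT-EGFR and HaCaT-vector with EGF or serum, each with an inhibitor to the left of the condition without it, 1 point for each array, the mean (horizontal line, 2 or more arrays) and SD (vertical line, 3 or more). SLC43A3 reads 8.70 and 8.76 in HaCaT-EGFR with LY294002 and U1026, below the 7 EGF arrays (9.15 to 10.19).

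Genes that act beside the transporters were counted from lists of general knowledge. Of 19 genes of the ATF4 and amino acid response, 8 passed in HaCaT-HRAS against HaCaT-vector, 3 higher and 5 lower, with a median of -0.23, where 18.2% of all genes passed. ASNS, asparagine synthetase, read 10.58, 10.03 and 10.05 in HaCaT-HRAS, against 11.87, 11.34 and 10.82 in HaCaT-vector (-1.12, SE 0.30, adjusted p = 0.00594). NUPR1, SESN2 and PSAT1, of serine synthesis, fell by 0.96, 0.96 and 0.92. In HaCaT-EGFR against HaCaT-vector in serum 5 passed, 1 higher and 4 lower, with a median of -0.40 (7.87% of all genes). ATF4 itself read 11.81, 11.36, 11.78, 11.63 and 11.68 in HaCaT-EGFR, against 12.87, 13.01 and 12.90 in HaCaT-vector (-1.28, SE 0.13, adjusted p = 1.26e-09). ASNS fell there by 1.57, CHAC1 by 1.25 and DDIT4 by 1.16, while CEBPB rose by 0.92. After starvation HaCaT-EGFR had 1 higher and 6 lower than HaCaT-vector (7.89% of all genes), led by NUPR1 (-2.45) and ASNS (-1.78). In HaCaT-p65 in serum 1 was higher and 2 lower (7.18%). U1026 with EGF raised 3 and lowered 0 of the 19 (3.02% of all genes): NUPR1 (1.43), DDIT3 (1.08) and DDIT4 (0.89). Gefitinib with EGF lowered 4 and raised 0 (1.81%): CHAC1 (-1.34), STC2 (-0.93), TRIB3 (-0.93) and CEBPB (-0.79).

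Of 17 cytosolic aminoacyl-tRNA synthetases, 4 were lower and 0 higher in HaCaT-EGFR against HaCaT-vector in serum, where 7.87% of all genes passed: YARS1, CARS1, AARS1 and LARS1, by 0.41 to 0.49. None passed in HaCaT-HRAS against HaCaT-vector. Of 20 genes of amino acid sensing at the lysosome, 3 were higher and 5 lower in HaCaT-HRAS, where 18.2% of all genes passed. RRAGD, a Rag GTPase that recruits mTORC1, read 7.44, 7.51 and 7.38 in HaCaT-HRAS, against 4.77, 4.63 and 4.53 in HaCaT-vector (2.80, SE 0.14, adjusted p = 8.44e-19). SESN3 and DEPTOR were higher there by 1.46 and 0.69, and RHEB was lower by 0.61. EGF in HaCaT-EGFR lowered 5 of the 20 and raised 0 (8.8% of all genes), SESN3 by 0.66, DEPTOR by 0.51, SESN1 by 0.44 and RRAGC by 0.28 among them. Of 14 other amino acid transporters, SLC6A14, a broad neutral and cationic carrier, was the only one higher in HaCaT-HRAS, at 10.07, 10.26 and 9.54, against 6.17, 6.37 and 6.20 in HaCaT-vector (3.71, SE 0.43, adjusted p = 8.61e-09). SLC6A15 was lower by 1.02, and 2 of the 14 is no more than the share over all genes. Of 7 glutathione genes, GCLC, which joins glutamate to cysteine on the way to glutathione, fell by 1.07 in HaCaT-HRAS. GSR rose there by 0.64 and the other 5 did not pass, where 18.2% of all genes did.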

How the data were processed

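RNA of 58 samples had been hybridised by the authors to Affymetrix U133 Plus 2.0 arrays, 1 array a sample. The deposited values are log2 expression per probe set, which the authors made with frozen robust multiarray analysis and from which they removed the effect of processing date with limma. Of 54675 probe sets, 41097 were annotated to 1 gene symbol, 1801 to several and 11777 to none, and those with 1 symbol gave 19775 genes. A gene with several probe sets was read from the one brightest on average. The members and gene lists were chosen with earlier results of these data known.

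A linear model with 18 conditions and 6 dates was fitted to all 58 arrays (limma 3.58.1 in R 4.3.3, moderated by eBayes) with Benjamini-Hochberg correction for all genes. The date term keeps the degrees of freedom that removing dates had used. Tables and figures were made with Python 3.11.15, numpy 2.4.6, pandas 2.3.3 and matplotlib 3.10.9. The fit was tested on simulated data with known changes, for HaCaT-HRAS against HaCaT-vector and for serum, EGF, and gefitinib with EGF in HaCaT-EGFR. It recovered 24% to 66% of changes of 0.5 log2 and 80% to 98% of changes of 1, so smaller changes were often missed. Members that passed were named in order of absolute log2 change, with every array where it was at least 1, and list genes likewise, at most 4 a list and comparison. Array 1, 2 and so on number the arrays within a condition. The number of arrays limits the precision, most where a condition had 1 or 2.

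Same-numbered replicates deviated together in serum in HaCaT-HRAS and HaCaT-vector (r of 0.258 to 0.492 over 3 pairs) and in HaCaT-EGFR and HaCaT-vector (0.212 to 0.501), from the replicate numbers in the labels. This did not hold throughout. In serum, r was 0.00291 to 0.543 in HaCaT-p65 and HaCaT-vector, and -0.117 to 0.182 in HaCaT-vector and HaCaT. Between EGF and starved HaCaT-EGFR it was -0.482 to 0.624, and between TNF and starved HaCaT-p65 -0.457 to 0.204. The alternatives were no date term, a replicate block, arrays centred on their median, the mean over a gene's probe sets, genes with a mean of at least 5, an intensity trend, the compared groups fitted alone, and arrays left out. The replicate block gave each replicate number an offset shared by all dates and times, so it did not model the pairs within a date.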

Additional observations from a re-analysis of the deposited data

Results flagged for a closer look

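Among the 19 members that passed a test, the 6 conditions of 4 to 10 arrays gave 114 groups of values, and in 4 of them 1 array lay far from the others by Dixon's criterion, which chance meets in about 1 group in 20. SLC1A3 read 9.80 in HaCaT-vector EGF array 1, against 9.36 to 9.42 in the other 3. SLC7A7 read 6.08 in HaCaT-p65 TNF array 4, against 5.46 to 5.64. SLC38A7 read 7.48 in starved HaCaT-EGFR array 7, against 6.96 to 7.17, and SLC43A1 read 4.26 in starved HaCaT-EGFR array 1, against 4.96 to 5.29.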

How the results depend on the processing

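No alternative reversed any of the 53 calls. All 53 remained without a date term and with an intensity trend, 52 with the replicate block, 49 with centred arrays, 39 with the mean over probe sets and 25 with the compared groups fitted alone, and all 46 calls of genes with a mean of at least 5 remained when other genes were left out. Leaving out single arrays lost 28 of the 53 at least once. Arrays with LY294002 or U1026 could not be left out, which bounds what those comparisons show.

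The counts of members past the test moved as follows. Without a date term, which makes the standard errors smaller, they were 5 for HaCaT-EGFR against HaCaT, 8 and 12 for starved HaCaT-EGFR and HaCaT-p65 against HaCaT-vector, 13, 9 and 8 for serum against starvation in HaCaT-EGFR, HaCaT-vector and HaCaT-p65, 1 for TNF in each line, 1 and 8 for gefitinib with EGF and in serum, 1 for LY294002 and 4 for U1026. With the replicate block they were 1 for serum against starvation in HaCaT-p65, 2 for gefitinib in serum and 1 for U1026. The block took away 1 call, SLC1A3 in serum against starved HaCaT-EGFR (-0.67, adjusted p = 0.0626), where the numbers did not pair the arrays, and no other. With centred arrays 1 remained for serum against starvation in HaCaT-EGFR. With the mean over probe sets there were 3 for HaCaT-p65 against HaCaT, 5 and 1 for starved HaCaT-EGFR and HaCaT-p65 against HaCaT-vector, 1 for serum against starvation in HaCaT-EGFR, 1 for gefitinib with EGF and 1 for U1026. Among genes with a mean of at least 5 there was 1 for HaCaT-vector against HaCaT and 1 for U1026, and with the trend 1 for U1026. With groups fitted alone there were 3 for HaCaT-p65 against HaCaT-vector in serum, 3 for HaCaT-HRAS against HaCaT, 0 each for HaCaT-p65, HaCaT-EGFR and HaCaT-vector against HaCaT, 1 and 15 for starved HaCaT-EGFR and HaCaT-p65 against HaCaT-vector, 0, 14 and 3 for serum against starvation in HaCaT-EGFR, HaCaT-vector and HaCaT-p65, 1 for EGF in HaCaT-vector and 0 for gefitinib in serum. Date could not be estimated in the fits that gave 15, 14 and 3. The cause of the other shifts was not tested.

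Leaving out 1 array at a time gave 9 to 10 calls for HaCaT-HRAS against HaCaT-vector, 4 to 5 for HaCaT-p65 and 3 to 4 for HaCaT-EGFR. Against HaCaT it gave 8 to 12 for HaCaT-HRAS, 3 (without HaCaT array 3) to 5 for HaCaT-p65, 1 (without HaCaT-EGFR array 3) to 4 for HaCaT-EGFR and 1 (without HaCaT array 2) to 2 for HaCaT-vector. For starved lines it gave 1 to 3 in HaCaT-EGFR and 0 to 2 in HaCaT-p65, both lowest without HaCaT-vector array 4. Serum against starvation gave 0 (without serum array 4 or starved array 7) to 3 in HaCaT-EGFR, 0 in HaCaT-vector and 0 to 1 in HaCaT-p65. EGF gave 3 to 5 in HaCaT-EGFR, highest without starved array 7, and 0 in HaCaT-vector. TNF gave 0 to 1 in HaCaT-p65 and 0 in HaCaT-vector, gefitinib 0 with EGF and 0 to 1 in serum, and LY294002 and U1026 0 to 1 each. The differences between lines in the EGF and TNF effects stayed at 0.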
